A study of Mus musculus with 12 samples.

Results

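The genes followed here are Csf3r, Cxcr2, Trem1, Clec4d, Retnlg and G0s2, 6 of the 17471 genes listed in the libraries, and they were taken by symbol. They encode 4 surface receptors (CSF3R, CXCR2, TREM1 and CLEC4D), 1 secreted protein (RETNLG) and 1 cytosolic inhibitor of fat breakdown (G0S2). The tissue was mouse left ventricle collected 4 days after surgery. MI hearts had the left anterior descending coronary artery tied off for good, a model of myocardial infarction, and sham hearts had the operation without it. All animals were siblings with floxed Yap alleles, were 6 to 10 weeks old and ate a tamoxifen citrate diet from the time of surgery, controls included. Cre-positive animals carried 1 copy of MerCreMer, a tamoxifen-dependent Cre recombinase, at their own periostin locus (Postn), which is active in myofibroblasts, and Cre-negative animals had wildtype Postn. The 4 groups were Cre-negative sham, Cre-positive sham, Cre-negative MI and Cre-positive MI, each with n = 3 libraries.

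Neutrophils are the first leukocytes to enter an infarct, and monocytes and macrophages follow them. Release of neutrophils from bone marrow is governed by G-CSF acting on its receptor CSF3R, and their movement into tissue by CXC chemokines acting on CXCR2, a G protein-coupled receptor. TREM1 and CLEC4D are activating receptors of neutrophils and of monocytes and macrophages that signal through the adaptors DAP12 (Tyrobp) and the Fc receptor gamma chain (Fcer1g), RETNLG is a resistin-like protein of mouse granulocytes, and G0S2, which binds and inhibits the lipase ATGL, is made in fat, liver and muscle as well as in activated leukocytes.

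Levels are given as CPM (a gene's expected count scaled to a common library total). Library totals ranged from 10257675 to 15176286 expected counts, and 3 counts, taken as the floor of detection, were 0.198 to 0.292 CPM. The labels do not say whether libraries of a group came from separate animals, and p-values measure only the spread between these samples. Cre-positive sham replicate 2 stood apart from the other libraries on the second principal component (-57.8 against -14.7 to 21.4). Its sums over the pan-leukocyte genes (18.9 CPM, against 47.8 to 66.0 in the other sham libraries) and the cardiomyocyte genes (76860 CPM) were the lowest of the sham libraries. Yap1, counted over the whole tissue and over all its transcripts, was 96.1 to 107 CPM after MI in Cre-negative and 96.5 to 101 CPM in Cre-positive hearts, while Postn was 1700 to 1876 and 649 to 719 CPM. The 12 cardiomyocyte genes summed to 59680 CPM or more in every library, and 11 of them fell after MI in Cre-negative and 8 in Cre-positive hearts. In a bulk sample, fewer cells of a type and less RNA per cell cannot be told apart.

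Of the 6 genes, 4 rose and 1 fell after MI in Cre-negative hearts, and 3 rose and 0 fell in Cre-positive hearts. Clec4d, Trem1 and Csf3r were higher in all MI libraries than in all sham libraries in both genotypes, the change of Cxcr2 was not called in either, Retnlg rose in Cre-negative hearts with 1 library far above the rest, and G0s2 was lower in Cre-negative MI. In the model fitted to all genes (edgeR's quasi-likelihood test, calls at a Benjamini-Hochberg adjusted p under 0.05), 29.9% of the 13678 tested genes were called higher and 24.4% lower in Cre-negative hearts, and 25.7% higher and 19.5% lower in Cre-positive hearts. By separation of the CPM of the libraries, 48.6% of all genes were higher and 19% lower in every Cre-negative MI library than in every Cre-negative sham library, and 41.4% were higher in Cre-positive hearts. All 6 passed the filter on low counts, but Clec4d and Trem1 reached it only in MI libraries and so had to differ, and the number of members called is therefore no support for the list.

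**Figure D1:**
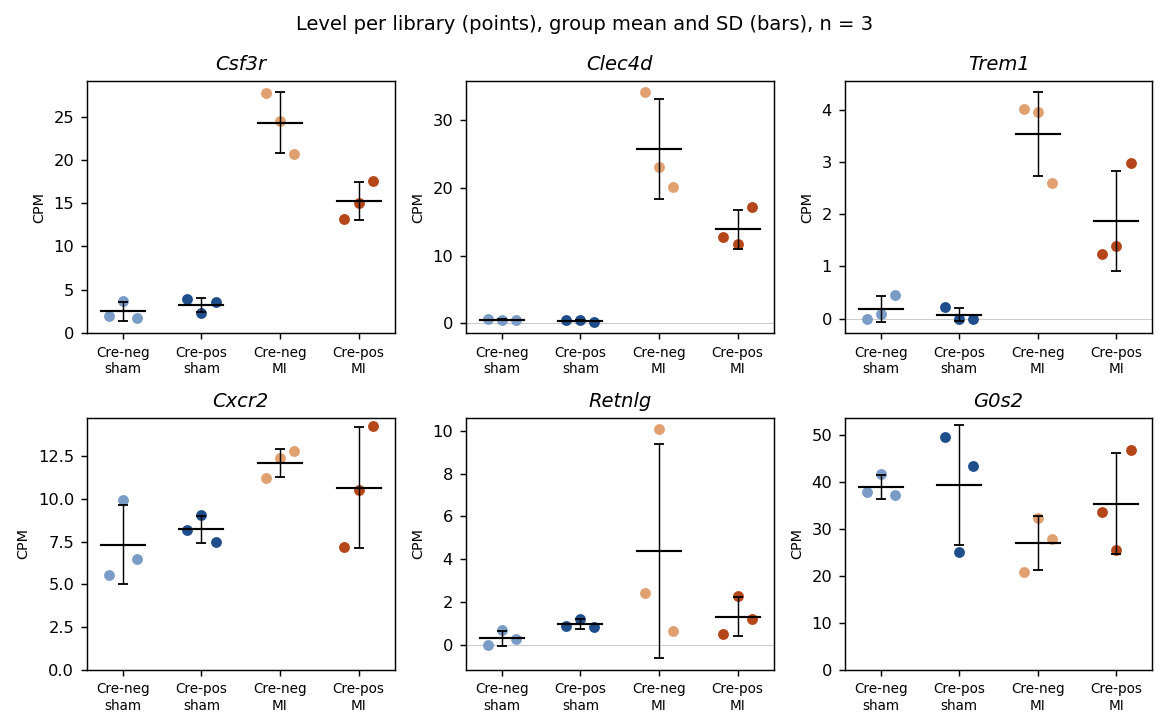
Level of each gene in CPM (y axis, a separate scale per gene) in the 3 libraries of each group (x axis, points), with the group mean and SD (bars). Csf3r, Clec4d and Trem1 separate MI from sham, Cxcr2 spans 5.55 to 14.3 CPM and G0s2 20.9 to 49.7 CPM over all libraries, and Retnlg has 1 high library at 10.1 CPM in Cre-negative MI.

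Clec4d (Entrez 17474, mm10 chr6:123262107-123275268, plus strand) encodes the C-type lectin MCL, which recognises mycobacterial glycolipid and pairs with Mincle. It was 0.597, 0.487 and 0.549 CPM in Cre-negative sham libraries 1 to 3 and 34.0, 23.0 and 20.0 CPM in Cre-negative MI. Cre-positive libraries gave 0.514, 0.491 and 0.281 CPM after sham and 12.8, 11.7 and 17.1 CPM after MI. Every sham library lay below 1 CPM, and the lowest MI library was at 11.7 CPM, with no overlap. The log2 fold change, MI minus sham, was 5.28 ± 0.29 (SE, adjusted p = 1.13e-07, 38.8-fold) in Cre-negative and 4.73 ± 0.30 (adjusted p = 3.86e-07, 26.5-fold) in Cre-positive hearts by edgeR's quasi-likelihood test. The sham level rested on 18 and 16 reads per group. Its point estimates were the highest of the 6 genes in both genotypes, but those of Trem1 were higher when 1 sham library was left out (5.76 in Cre-negative and 7.54 in Cre-positive hearts), so the order of the 2 genes is not fixed.

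Promoter windows are shown for Clec4d, Trem1 and G0s2, the 2 genes with the highest estimated rise in Cre-negative hearts and the gene that fell, to set the sequences of genes that moved in opposite directions side by side. Each covers bases upstream of the annotated start as given by RefSeq for GRCm38.p6 (the mm10 assembly), and capitals mark a match to 1 of 4 motifs searched on both strands: TTNNGCAA for C/EBP, GAGGAA for PU.1, GGG and CC with 5 bases of any kind between them for NF-kB, and AGGNCA repeated after 1 base of any kind for the nuclear receptor element DR1. The Clec4d window, chr6:123261857-123262106 on the plus strand, ends 1 base before the start.
Clec4d: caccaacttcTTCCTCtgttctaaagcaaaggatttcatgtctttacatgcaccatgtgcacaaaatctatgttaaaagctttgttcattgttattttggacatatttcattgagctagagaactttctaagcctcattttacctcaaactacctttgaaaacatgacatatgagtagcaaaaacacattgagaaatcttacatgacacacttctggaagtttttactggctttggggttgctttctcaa
It held 1 match, to PU.1 on the reverse strand at -240 to -235, in a window of 35.2% G and C with 0 CG dinucleotides. The PU.1 letters occurred in 23.3% of 32851 promoters of this length, and the median promoter had 52.4% G and C and 6 CG dinucleotides.

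Trem1 (Entrez 58217, chr17:48232713-48246927, plus strand) encodes an immunoglobulin-like receptor that amplifies inflammatory signals in myeloid cells. Sham libraries held 0, 0.0975 and 0.457 CPM in Cre-negative and 0.220, 0 and 0 CPM in Cre-positive hearts, which came to 6 and 3 reads per group. After MI the libraries held 4.02, 3.96 and 2.60 CPM in Cre-negative and 1.24, 1.40 and 2.97 CPM in Cre-positive hearts. All 6 MI libraries lay above all 6 sham libraries, and the genotypes overlapped after MI. In Cre-negative hearts Trem1 rose by 3.96 ± 0.72 (SE) on the log2 scale (adjusted p = 0.000564, edgeR's quasi-likelihood test). In Cre-positive hearts the rise was 4.15 ± 0.86 (adjusted p = 0.00187). From 3 sham reads the size of the Cre-positive rise is poorly fixed: the ratio of reads scaled to library totals was 22.9, with a 95% counting interval of 7.55 to 113. Without Cre-positive sham replicate 1, which held those reads, the sham group was at 0, and without Cre-negative sham replicate 3 the Cre-negative estimate was 5.76. The Trem1 window, chr17:48232489-48232712 on the plus strand, runs from 250 to 27 bases before the promoter table's start and stops where the annotated gene begins.
Trem1: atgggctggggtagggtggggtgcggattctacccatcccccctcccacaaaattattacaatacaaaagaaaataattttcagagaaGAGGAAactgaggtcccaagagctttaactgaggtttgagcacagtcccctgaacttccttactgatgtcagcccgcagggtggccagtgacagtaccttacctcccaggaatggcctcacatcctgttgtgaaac
It held 1 match, to PU.1 at -162 to -157, and the 250-base window had 49.6% G and C and 2 CG dinucleotides.

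Csf3r (Entrez 12986, chr4:126023441-126044975, plus strand), the G-CSF receptor, drives granulocyte production and survival through JAK and STAT proteins. It was 1.97, 3.75 and 1.78 CPM in Cre-negative sham and 27.7, 24.5 and 20.7 CPM in Cre-negative MI. In Cre-positive hearts the libraries gave 3.90, 2.26 and 3.56 CPM after sham and 13.2, 15.0 and 17.5 CPM after MI. No MI library overlapped a sham library, and no Cre-positive MI library reached the lowest Cre-negative MI library. Csf3r rose by 3.06 ± 0.25 (SE) on the log2 scale in Cre-negative hearts (adjusted p = 1.28e-06, 8.35-fold) and by 1.997 ± 0.24 in Cre-positive hearts (adjusted p = 3.53e-05, 3.99-fold), by edgeR's quasi-likelihood test.

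Cxcr2 (Entrez 12765, chr1:74153994-74161246, plus strand) had the smallest estimated change of the 4 receptors in either genotype. It was 5.55, 9.91 and 6.50 CPM in Cre-negative sham and 11.2, 12.4 and 12.8 CPM in Cre-negative MI. Cre-positive hearts gave 8.18, 9.03 and 7.45 CPM after sham and 7.18, 10.5 and 14.3 CPM after MI. The Cre-negative groups did not overlap in CPM but did overlap once CPM was scaled by edgeR's normalisation factors (36.1% of all genes were separated in this direction on that scale), and the Cre-positive groups overlapped on either scale. The log2 change was 0.49 ± 0.24 (SE, 95% interval -0.03 to 1.02, adjusted p = 0.104) in Cre-negative hearts. It was 0.15 ± 0.24 (-0.37 to 0.67, adjusted p = 0.642) in Cre-positive hearts, both by edgeR's quasi-likelihood test. The Cre-negative change passed the threshold without Cre-negative sham replicate 2 (0.70, adjusted p = 0.0378 by edgeR). It also passed when only the Cre-negative libraries were fitted (0.50, adjusted p = 0.0479 by edgeR).

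Retnlg (Entrez 245195, chr16:48872608-48874498, plus strand), the granulocyte resistin-like protein, was scarce and uneven. It was 0, 0.681 and 0.274 CPM in Cre-negative sham, and 2.44, 10.1 and 0.651 CPM in Cre-negative MI. Cre-positive libraries gave 0.882, 1.23 and 0.843 CPM after sham and 0.510, 2.28 and 1.203 CPM after MI. The groups overlapped in both genotypes, and Cre-negative MI replicate 2 was higher than any other library. Retnlg rose in Cre-negative hearts by 3.56 ± 1.04 (SE) on the log2 scale (adjusted p = 0.0122 by edgeR's quasi-likelihood test). Without Cre-negative MI replicate 2 the change was 2.06 (adjusted p = 0.0766), and without Cre-negative sham replicates 1 and 2 in turn it was 2.94 and 4.65. In Cre-positive hearts the change was 0.21 ± 0.93 (95% interval -1.81 to 2.22, adjusted p = 0.876), from 36 reads after sham and 55 after MI. S100a9, the gene whose profile over the 12 libraries was nearest to that of Retnlg, encodes a subunit of calprotectin and ranged from 5.43 to 31.4 CPM in Cre-negative MI.

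G0s2 (Entrez 14373, chr1:193272160-193273188, minus strand) was the most abundant of the 6 in sham hearts and the one that fell. Cre-negative libraries gave 37.8, 41.8 and 37.1 CPM after sham and 20.9, 32.4 and 27.8 CPM after MI. Cre-positive libraries gave 49.7, 25.0 and 43.4 CPM after sham and 33.7, 25.6 and 46.8 CPM after MI. Sham and MI did not overlap in Cre-negative hearts and overlapped widely in Cre-positive hearts, where the library that stood apart, sham replicate 2, was the lowest. G0s2 fell by 0.77 ± 0.26 (SE) on the log2 scale in Cre-negative hearts (adjusted p = 0.0229, edgeR's quasi-likelihood test), and the call was lost without MI replicate 1 (-0.60, adjusted p = 0.094), sham replicate 1 (adjusted p = 0.0509) or sham replicate 2 (adjusted p = 0.0515). In Cre-positive hearts the change was -0.38 ± 0.25 (95% interval -0.93 to 0.17, adjusted p = 0.237), and without sham replicate 2 it was -0.66 (adjusted p = 0.0222). The G0s2 window, chr1:193273218-193273438 on the minus strand, runs from 250 to 30 bases before the start.
G0s2: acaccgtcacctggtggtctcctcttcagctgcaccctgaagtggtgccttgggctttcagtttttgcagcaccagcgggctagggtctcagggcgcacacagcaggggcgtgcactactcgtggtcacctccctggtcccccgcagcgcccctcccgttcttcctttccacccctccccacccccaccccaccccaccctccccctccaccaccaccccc
It held no match to the 4 motifs, and the 250-base window had 67.2% G and C and 11 CG dinucleotides, the most of the 6 genes. Of the windows not shown, Csf3r held PU.1 and NF-kB matches, Cxcr2 a PU.1 and an NF-kB match, and Retnlg a C/EBP match. All 250 bases of the Csf3r window lie inside the RefSeq span of the gene, and 109 lie inside its annotated exons. The Csf3r matches are thus not upstream of that span. The C/EBP, NF-kB and DR1 letters occurred in 9.56%, 45.8% and 0.338% of promoters. A match is a description of letters and not of a bound site.

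Between genes, levels can be compared only per transcript length, which FPKM provides. In Cre-negative sham hearts mean FPKM was 47.1 for G0s2, 2.39 for Cxcr2, 0.647 for Csf3r, 0.547 for Retnlg, 0.413 for Clec4d and 0.0633 for Trem1. In Cre-negative MI it was 32.7 for G0s2, 19.4 for Clec4d, 7.51 for Retnlg, 6.28 for Csf3r, 3.95 for Cxcr2 and 1.18 for Trem1. Clec4d thus moved from the fifth to the second place of the 6 and Cxcr2 from the second to the fifth. The sham place of Clec4d is not fixed. In Cre-negative sham replicates 1, 2 and 3 Clec4d was 0.45, 0.37 and 0.42 FPKM, against 0, 1.17 and 0.47 FPKM for Retnlg. The place of Cxcr2 rests on 1 Retnlg library: without Cre-negative MI replicate 2 mean FPKM was 2.64 for Retnlg and 3.91 for Cxcr2, which was then the fourth. In Cre-positive MI the order of mean FPKM was G0s2 (42.8), Clec4d (10.5), Csf3r (3.96), Cxcr2 (3.47), Retnlg (2.28) and Trem1 (0.633).

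**Figure D2:**
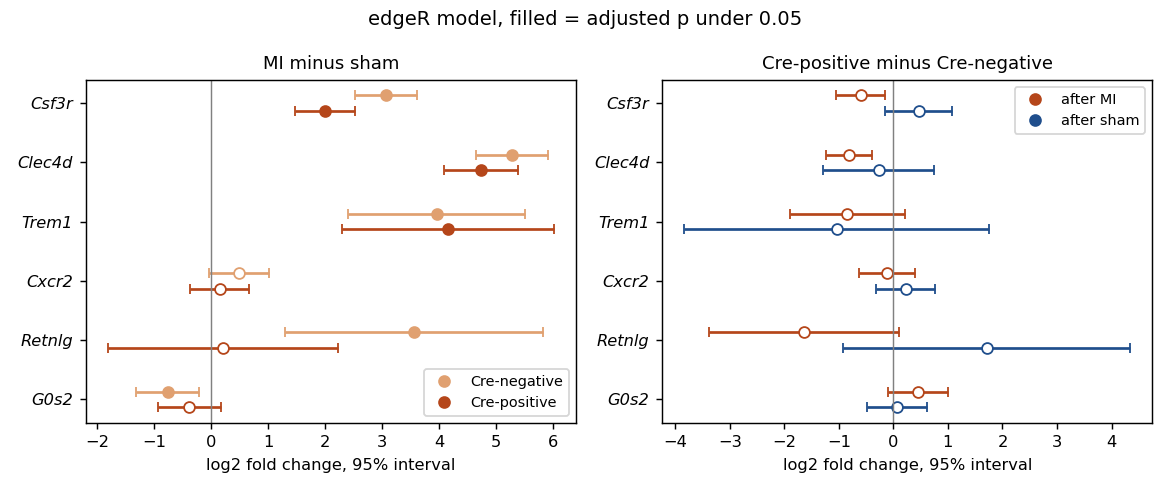
Log2 fold change of each gene from the edgeR model (x axis) with its 95% interval (bars), MI minus sham in each genotype (left) and Cre-positive minus Cre-negative after each surgery (right). Filled points passed an adjusted p of 0.05, which no gene did in the comparisons of genotypes, and the intervals of Clec4d (-1.24 to -0.40) and Csf3r (-1.05 to -0.15) after MI lie below 0.

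The comparison of genotypes after MI asks how the hearts with myofibroblast Cre differed from their siblings. None of the 6 genes was called, and neither were any of the 13678 genes (0% by edgeR's quasi-likelihood test, 12.6% at an unadjusted p under 0.05). Clec4d was 13.9 ± 2.88 CPM (SD, n = 3) in Cre-positive and 25.7 ± 7.36 CPM in Cre-negative MI, a log2 difference, Cre-positive minus Cre-negative, of -0.82 ± 0.19 (SE, adjusted p = 0.224, edgeR's quasi-likelihood test). Csf3r was 15.2 ± 2.18 against 24.3 ± 3.50 CPM, a difference of -0.60 ± 0.21 (adjusted p = 0.29). For these 2 genes every Cre-positive MI library was lower than every Cre-negative MI library, as it was for 21.2% of all genes. Their p-values before adjustment were 0.00115 and 0.0128. A second tool, DESeq2 run on all 12 libraries, gave adjusted p-values of 0.0543 for Clec4d and 0.127 for Csf3r. In the authors' deposited table of this comparison, made with DESeq2, both are lower at an adjusted p of 0.00778 (log2 -0.80) and 0.0166 (log2 -0.59), and that table lists 380 genes higher and 383 lower.

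The other 4 genes overlapped between the genotypes after MI. Differences on the log2 scale were -0.84 ± 0.49 (SE, 95% interval -1.90 to 0.22) for Trem1, -1.64 ± 0.80 (-3.39 to 0.11) for Retnlg, -0.12 ± 0.23 (-0.62 to 0.39) for Cxcr2 and 0.45 ± 0.25 (-0.10 to 1.002) for G0s2. The difference of Retnlg rested on 1 library and was -0.14 without Cre-negative MI replicate 2. The 4 pan-leukocyte genes moved alongside: their summed level was 304 to 357 CPM in Cre-positive and 427 to 576 CPM in Cre-negative MI, and 0 of 4 were called. The 18 macrophage and monocyte genes summed to 2210 to 2456 against 2918 to 3514 CPM, again with 0 called. Summed Y-linked reads exceeded 10 CPM in 3 of 3 Cre-negative MI libraries and 1 of 3 Cre-positive MI libraries, and in 2 of 3 and 0 of 3 sham libraries, so Y-linked reads were not balanced between the groups. The part of leukocyte transcripts and of sex in these differences was not tested.

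After sham, none of the 6 genes was called between genotypes, against 0% of genes called higher and 0.0512% lower (8.22% in either direction at an unadjusted p under 0.05) by edgeR's quasi-likelihood test, and DESeq2 also called none of the 6. Retnlg was higher in every Cre-positive sham library than in every Cre-negative sham library, a separation in this direction that 3.19% of all genes showed, but with 36 against 10 reads its log2 difference was 1.71 ± 1.21 (SE, adjusted p = 0.693, edgeR). The other 5 genes overlapped, with differences from -1.04 (Trem1) to 0.46 (Csf3r). Whether the response to injury differed with genotype was tested directly as an interaction in the same model. No member and 0% of all genes were called (8.16% at an unadjusted p under 0.05). The intervals of 2 genes lay below 0. They were Csf3r, with a log2 difference of -1.07 ± 0.35 (SE) between the responses (95% interval -1.82 to -0.31, adjusted p = 0.553, edgeR), and Retnlg, at -3.35 ± 1.44 (-6.49 to -0.21, adjusted p = 0.598, edgeR). Without Cre-negative MI replicate 2 the value for Retnlg was -1.85, and over all fits that left out 1 library it ran from -4.46 to -1.85.

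Relative to leukocyte transcripts of the same library the 6 genes fell into different patterns. Each gene's CPM was divided by the summed CPM of Ptprc, Itgb2, Coro1a and Laptm5, genes of nearly all leukocytes, and is given per 100 of their reads, with no test. That sum was 48.1 to 66.0 CPM after sham and 427 to 576 CPM after MI in Cre-negative hearts. In Cre-positive hearts it was 18.9 to 65.0 and 304 to 357 CPM. A gene whose own CPM changes little must therefore be lower after MI on this scale, as for Cxcr2. Csf3r in Cre-negative hearts was 4.10, 5.91 and 2.69 after sham and 4.81, 4.98 and 4.85 after MI, and in Cre-positive hearts it was 3.76, 4.92 and 4.91 after MI. Its MI libraries thus lay within the range of Cre-negative sham hearts. Cre-positive sham libraries were higher (5.997, 11.97 and 7.46), the highest being replicate 2 with its low leukocyte sum. Clec4d in Cre-negative hearts was 0.768 to 1.24 after sham and 4.68 to 5.90 after MI, and in Cre-positive hearts it was 0.588 to 2.60 after sham and 3.64 to 4.80 after MI. Its ratio was thus higher in every MI library than in every sham library. Cxcr2 went the other way: in Cre-negative hearts it was 9.85 to 15.6 after sham and 1.94 to 2.996 after MI, and in Cre-positive hearts it was 12.6 to 47.8 after sham and 2.05 to 4.004 after MI. G0s2 was 56.2 to 78.6 after sham and 3.62 to 6.61 after MI in Cre-negative hearts, and 76.5 to 132.5 and 8.41 to 13.1 in Cre-positive hearts. Trem1 and Retnlg overlapped between sham and MI on this scale in Cre-negative hearts. In Cre-positive hearts Trem1 was 0 to 0.339 after sham, from 3 reads, and 0.353 to 0.833 after MI, every MI library being higher. Retnlg was 1.36 to 6.49 after sham and 0.145 to 0.748 after MI in those hearts, every MI library being lower.

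**Figure D3:**
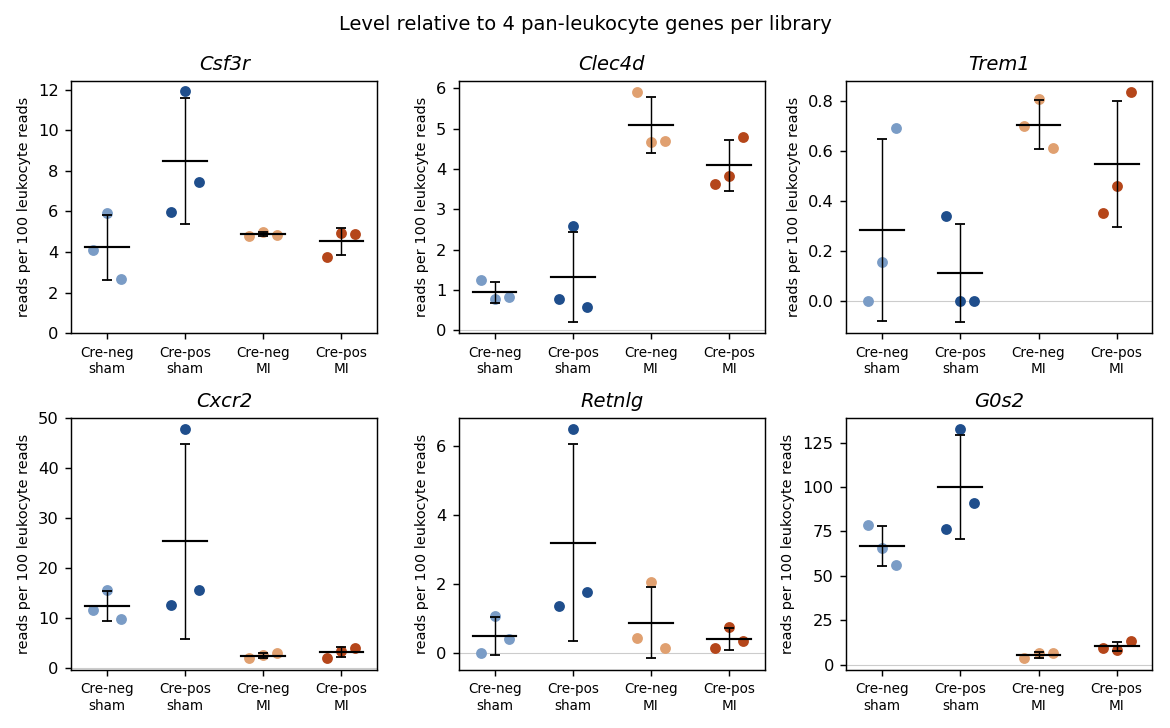
Each gene's reads per 100 reads of 4 pan-leukocyte genes (y axis, a separate scale per gene) in each library (points) by group (x axis), with mean and SD (bars). Csf3r in MI libraries (3.76 to 4.98) lies within the Cre-negative sham range, Clec4d is higher after MI and Cxcr2 and G0s2 are lower, and the highest Cre-positive sham point is replicate 2 for each gene except Trem1, for which it is replicate 1. The sum of the 4 genes rose after MI, so a gene with an unchanged CPM is lower on this scale.

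Of 5 CXCR2 ligand genes 4 were tested, and 4 rose in Cre-negative and 2 in Cre-positive hearts. Csf3, the gene of G-CSF itself, had no read in any group except Cre-positive MI (mean 0.0236 CPM). Of all 8 ligand genes 5 passed the filter, and 5 rose in Cre-negative and 2 in Cre-positive hearts. Of those 5, 3 reached the level of the filter (0.735 CPM) in fewer than 3 of the 6 sham libraries and so passed through MI libraries where they were high, and these counts are a description only. Cxcl5, a CXCR2 ligand, was 0.426 to 0.780 CPM in Cre-negative sham and 11.1 to 24.7 CPM in Cre-negative MI, a rise of 4.63 ± 0.49 (SE) on the log2 scale, and it rose by 5.14 ± 0.55 in Cre-positive hearts. Its mean after MI was 17.4 CPM in Cre-negative and 11.6 CPM in Cre-positive hearts. Cxcl2 rose by 3.26 ± 0.71 and 3.38 ± 0.80, from 3 and 2 reads over the sham groups. Cxcl3 had 0 sham reads and was at least 9.57-fold higher after MI in Cre-negative hearts and at least 5.24-fold higher in Cre-positive hearts, against a floor of 3 reads over the group. Cxcl1 (1.38 ± 0.45) and Ppbp (2.10 ± 0.53) rose in Cre-negative hearts, and in Cre-positive hearts their changes were 1.14 (adjusted p = 0.0796, edgeR) and 1.47 (adjusted p = 0.0547, edgeR). Pglyrp1, whose product can activate TREM1, rose by 1.78 ± 0.51 in Cre-negative hearts and changed by 0.38 ± 0.47 (adjusted p = 0.537, edgeR) in Cre-positive hearts. Ppbp is also a platelet gene, and of 8 tested erythrocyte and platelet genes 3 rose in each genotype. No ligand was called in the interaction. The median log2 change of the 5 tested ligands was 2.10 in Cre-negative and 1.47 in Cre-positive hearts, against 0.02 over all genes in both.

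**Figure D4:**
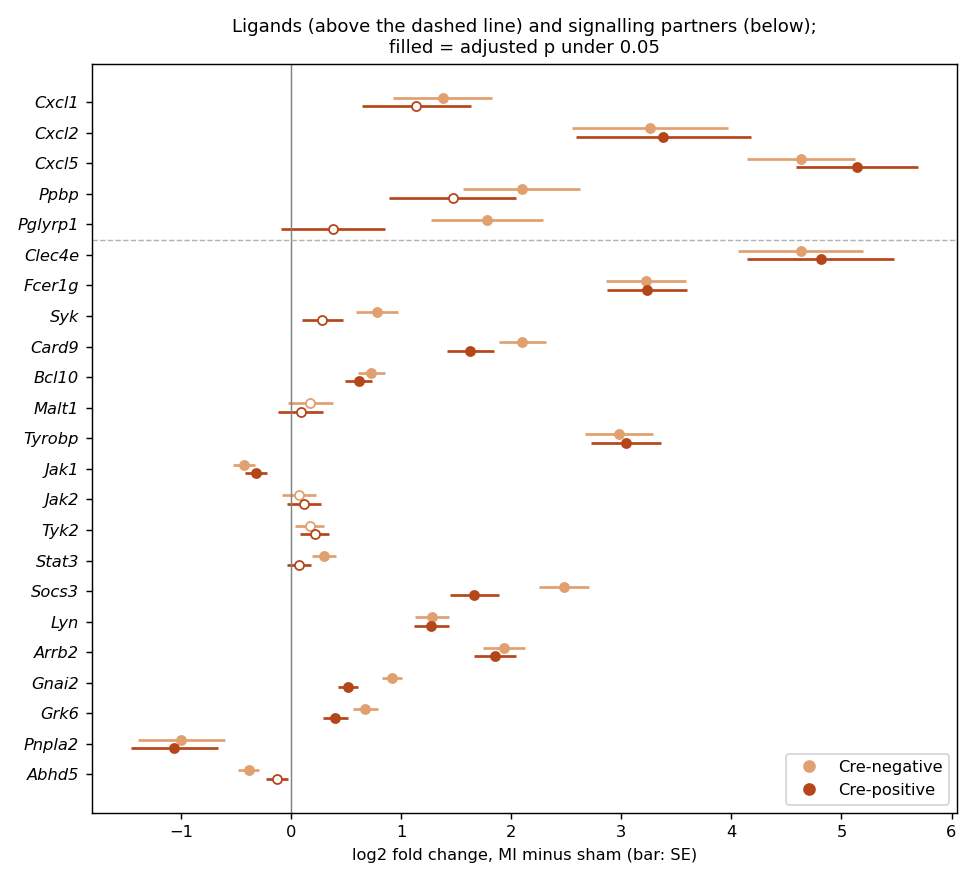
Log2 fold change, MI minus sham, with its SE (x axis) for the tested ligand genes (above the dashed line) and signalling partners (below) in each genotype, from the edgeR model. Filled points passed an adjusted p of 0.05. Adaptors and the Mincle gene Clec4e lie far to the right (Clec4e 4.63 and 4.81, from 6 and 3 sham reads), and the lipase gene Pnpla2 lies left of 0 (-0.995 and -1.06).

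Adaptor genes of CLEC4D and TREM1 rose after MI in both genotypes. Of 18 partner genes 12 rose and 3 fell in Cre-negative hearts, and 10 rose and 2 fell in Cre-positive hearts, with medians of 0.76 and 0.46 on the log2 scale. The Mincle gene Clec4e had 6 and 3 reads over the sham groups, at most 0.457 CPM in a library. It passed the filter (0.735 CPM) through MI libraries and so had to be higher there, and its calls are a description only. For CLEC4D, its partner Mincle (Clec4e) rose by 4.63 ± 0.56 (SE) and 4.81 ± 0.67, and the gamma chain gene Fcer1g rose from 9.81 to 20.1 CPM in Cre-negative sham to 135 to 209 CPM in Cre-negative MI (log2 3.23 ± 0.36 in each genotype). Card9, which relays their signal, rose by 2.10 ± 0.22 and 1.63 ± 0.21, Bcl10 by 0.73 and 0.62, and Malt1 was not called (0.17 and 0.09). Syk, the kinase between them, rose by 0.78 ± 0.19 in Cre-negative hearts and changed by 0.29 (adjusted p = 0.233, edgeR) in Cre-positive hearts. Tyrobp, the TREM1 adaptor, rose by 2.98 ± 0.31 and 3.04 ± 0.32.

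Among the genes of CSF3R signalling, Socs3, its feedback inhibitor, rose by 2.48 ± 0.23 (SE) on the log2 scale in Cre-negative and 1.67 ± 0.22 in Cre-positive hearts. The kinase gene Lyn rose by 1.28 and 1.27. Stat3, its main transcription factor, rose by 0.30 in Cre-negative hearts (adjusted p = 0.0333, edgeR) and changed by 0.07 in Cre-positive hearts (adjusted p = 0.606, edgeR). Jak1 fell by 0.42 and by 0.32, and Jak2 and Tyk2 were not called. For CXCR2, the arrestin gene Arrb2 (1.94 and 1.85), the G protein gene Gnai2 (0.92 and 0.52) and the receptor kinase gene Grk6 (0.68 and 0.40) rose in both genotypes, although the change of Cxcr2 itself was not called. Pnpla2, which encodes ATGL, the lipase that G0S2 inhibits, fell in both genotypes (-0.995 ± 0.40, adjusted p = 0.0494, and -1.06 ± 0.40, adjusted p = 0.0452, edgeR). Both calls are close to the threshold, and sham and MI libraries overlapped in both genotypes. In Cre-negative hearts Pnpla2 was 515 to 896 CPM after sham and 334 to 541 CPM after MI. In Cre-positive hearts it was 586 to 1633 and 371 to 710 CPM. Abhd5, the coactivator of ATGL, fell by 0.39 in Cre-negative hearts and changed by -0.13 (adjusted p = 0.31, edgeR) in Cre-positive hearts. Of 15 fasting and PPAR target genes, a class to which G0s2 belongs, 7 fell and 1 rose in Cre-negative hearts and 8 fell and 1 rose in Cre-positive hearts. Of all genes, 24.4% and 19.5% were called lower. In Cre-positive sham the 15 genes summed to 5092 to 12370 CPM with a median of 5858 CPM, so 1 library was far above the others. The Cre-positive falls depend in part on that library. Among the 15 genes Acadm, an enzyme of fatty acid oxidation, fell by 1.27 and by 0.87, and Plin2, which coats lipid droplets, rose by 1.73 and 1.45. No partner was called between genotypes after MI, and the median of the 18 was -0.18.

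Of 18 tested relatives of the members other than G0s2, 14 rose and 3 fell in Cre-negative hearts, and 13 rose and 2 fell in Cre-positive hearts. Both directions occurred among the relatives of Csf3r, of Cxcr2 and, in Cre-negative hearts, of Retnlg. No tested relative of Trem1 or Clec4d fell. Of the 18, 5 reached the filter level in fewer than 3 sham libraries. Of the resistin family, Retn, the adipocyte hormone resistin, rose by 4.38 ± 1.34 (SE) in Cre-negative and 6.16 ± 1.40 in Cre-positive hearts on the log2 scale. The size of the Retn rise is poorly fixed, with 7 and 4 reads over the sham groups. After MI Retn was 3.69 to 8.83 CPM in Cre-negative hearts and 0.367 to 23.2 CPM in Cre-positive hearts. Retnla, a marker of alternatively activated macrophages, fell by 3.65 ± 0.68 in Cre-negative hearts and changed by -1.49 ± 0.66 (adjusted p = 0.0839, edgeR) in Cre-positive hearts. Adipocyte markers moved beside Retn: 5 of 9 tested rose in Cre-negative and 7 of 9 in Cre-positive hearts, and 4 of the 9 reached the filter level in fewer than 3 sham libraries. Their summed level reached 1806 CPM in 1 Cre-positive MI library. Their part in the rise of Retn and in the level of G0s2, also a fat cell gene, was not tested. Of the TREM family, Trem2, a lipid-sensing receptor of macrophages, rose from 2.29 to 4.26 CPM in Cre-negative sham to 67.7 to 79.1 CPM in Cre-negative MI (log2 4.25 ± 0.22). Treml2 and Treml4 rose in both genotypes, Treml4 from 2 and 1 reads over the sham groups. All 5 tested relatives of Clec4d (Clec4a1, Clec4a2, Clec4a3, Clec4n and Clec7a) rose in both genotypes, by 1.54 to 2.92 in Cre-negative hearts. Of the chemokine receptors, Cxcr4 rose by 2.19 and 1.88 and Cxcr6 by 5.06 ± 0.78 and 4.29 ± 0.69, and the scavenger receptor gene Ackr3 fell by 1.02 and by 0.65. The size of the Cxcr6 rise is poorly fixed, with 3 and 6 reads over the sham groups. Cxcr1, the nearest relative of Cxcr2, was at 0 in all sham libraries and at most 0.145 CPM after MI. Among the cytokine receptors related to CSF3R, Osmr rose by 1.21 and 0.69, and Lifr fell by 0.66 in Cre-negative hearts.

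Defining neutrophil markers divided into some that were readily detected after MI and some with few reads. Of 9 such genes (S100a8, S100a9, Ly6g, Mpo, Elane, Ltf, Camp, Ngp and Mmp8), 7 averaged under 1 CPM in each sham group, against 5 in the Cre-negative and 6 in the Cre-positive MI group. Ly6g, the surface antigen used to count mouse neutrophils, had 2 and 1 reads over the sham groups and 7.10 and 9 reads over the MI groups, Elane had 1 and 2 reads after MI and Camp had 0 in Cre-positive MI. Elane and Mpo are granule genes transcribed mostly in marrow precursors. S100a9, S100a8 and Mmp8 averaged 16.7, 10.2 and 7.24 CPM in Cre-negative MI. Mmp8, the neutrophil collagenase, rose by 5.54 ± 0.72 (SE) and 2.87 ± 0.60 on the log2 scale in Cre-negative and Cre-positive hearts. It had 4 and 15 reads over the sham groups, at most 0.390 and 0.491 CPM in a library, so the sizes of these rises are poorly fixed. Mmp8 passed the filter (0.735 CPM) through MI libraries, and these calls are a description only. The rises were not called different in the interaction (adjusted p = 0.598, edgeR). S100a8 and S100a9 rose in Cre-negative hearts (2.69 ± 0.93 and 2.92 ± 0.88) and changed by 1.22 (adjusted p = 0.284, edgeR) and 1.29 (adjusted p = 0.216, edgeR) in Cre-positive hearts.

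A wider list held 52 neutrophil genes, some restricted to neutrophils and some shared with other myeloid cells. Of these 36 passed the filter and 16 were not tested, and 34 rose in Cre-negative and 31 in Cre-positive hearts and 0 fell, where 29.9% and 25.7% of all genes were called higher. Of the 36, 13 reached the filter level in fewer than 3 sham libraries and had to be higher after MI to be tested, so the counts are a description and no support for the list. The receptor genes Lilrb4a (3.88 and 3.84) and Csf2rb (3.73 and 3.09), Pirb (2.98 and 2.60), the oxidase gene Ncf1 (2.59 and 2.51) and Spi1, which encodes the transcription factor PU.1 (2.91 and 2.69), rose in both genotypes. The 2 that were not called in Cre-negative hearts were Cebpb (0.10) and Chil1 (1.57), and the 5 in Cre-positive hearts were Cebpb (-0.51), Cebpd (0.22), Asprv1 (1.01), S100a8 and S100a9. Macrophage and monocyte genes rose beside them, 17 of 18 in both genotypes with medians of 2.51 and 2.40, and their sum was 458 to 579 CPM in Cre-negative sham and 2918 to 3514 CPM in Cre-negative MI. The list of other neutrophil genes summed to 177 to 238 CPM and 823 to 1227 CPM in the same groups. T, NK and B cell genes summed to 3.94 to 5.78 and 10.7 to 22.4 CPM (4 of 7 tested rose). Genes of eosinophils, basophils and mast cells summed to 7.44 to 13.3 and 16.5 to 21.8 CPM (1 of 5 tested rose, and 6 of 11 were not tested). The 1 that rose was Kit, with means of 4.73 and 13.1 CPM in these groups. Cpa3 (1.04 and 1.07 CPM), Mcpt4 (1.03 and 0.819 CPM) and Tpsb2 (1.70 and 1.41 CPM) were not called, so the higher sum does not describe the list as a whole. Of the 12 T, NK and B cell genes 5 were not tested. Of the 7 tested, 4 reached the filter level in fewer than 3 sham libraries, as did 1 of the 18 macrophage and monocyte genes. Their counts are a description only. The part of macrophages and monocytes in the rise of Clec4d, Trem1 and Csf3r was not tested.

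**Figure D5:**
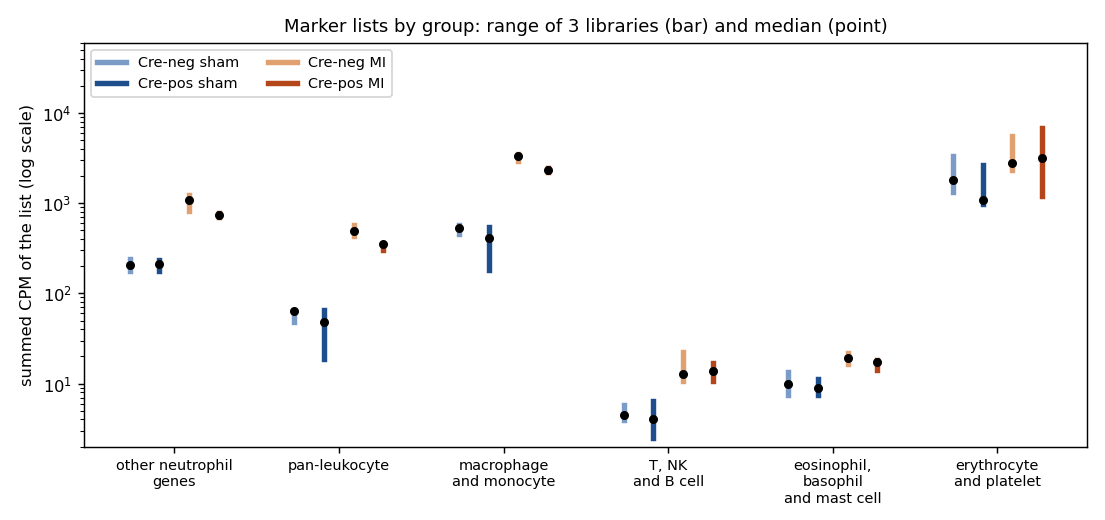
Summed CPM of each marker list (y axis, log scale) by group, as the range of 3 libraries (bars) and their median (points). The sums cover different numbers of genes and compare groups within a list, not lists. Macrophage and monocyte genes summed to 2918 to 3514 CPM after MI in Cre-negative hearts and 2210 to 2456 CPM in Cre-positive hearts, and to 458 to 579 CPM in Cre-negative sham.

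The genes with the nearest profiles over the 12 libraries differed for each member. Likeness was the root mean square difference of log2 CPM after each gene was centred on its own mean. These log2 values carry edgeR's normalisation factors and a small added count, which damps the changes of genes with few reads. Such genes included Tmem121 (0.0325 and 0.0802 CPM in Cre-negative and Cre-positive sham) and Depdc1a (0.0589 and 0 CPM). Others were the member Trem1 (0.185 and 0.0735 CPM), Cenpi (0.305 and 0.132 CPM), Spdl1 (0.311 and 0.163 CPM) and Ckap2 (0.303 and 0.166 CPM). Their likeness values depend in part on that added count. Nearest to Clec4d were Depdc1a (0.28), Ckap2 (0.30) and Hmox1 (0.31), the last a haem-degrading enzyme at a mean of 416 CPM in Cre-negative MI. Nearest to Trem1 were Cenpi (0.37), Atp8b4 (0.40) and Spdl1 (0.40), and to Csf3r Tmem121 (0.20), Mex3a (0.22) and Bok (0.26). Retnlg was nearest to the calprotectin genes S100a9 (0.68) and S100a8 (0.81), then to Slc13a3 (0.91), a looser match than for the other members. Cxcr2 was nearest to Rhno1 (0.17), Fancf (0.18) and Gas8 (0.18), and G0s2 to Ndufaf3 (0.15), Mamdc4 (0.16) and Cyb5d2 (0.16). Among the members themselves the nearest pair was Cxcr2 and G0s2 (0.62), followed by Csf3r and Trem1 (0.81) and Trem1 and Clec4d (0.90), and the farthest was Clec4d and G0s2 (2.70). On this measure genes with small changes lie near each other even where the direction differs. After MI in Cre-negative hearts the log2 change was 0.49 for Cxcr2, which was not called, and -0.77 for G0s2.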

How the data were processed

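RNA was measured in 12 left ventricle libraries, 3 per group. Per the submitters' processing notes, Bowtie2 2.2.5, RSEM 1.2.12 and the mm10 build were used. Per the file headers, each deposited library file gives RSEM expected counts and FPKM, both computed by the authors. The authors' deposited comparison tables hold log2 fold changes and p-values from DESeq2, as the file names state, and are quoted only where named. A gene not listed in a file counts as 0. Values were rounded (74.4% of those above 0 were already whole at the precision deposited), filtered with filterByExpr (minimum count 10, 13678 genes kept and 3793 removed) and fitted in R 4.3.3 with edgeR 4.0.16, with TMM scaling and 4 group means over all 12 libraries. Two-sided p-values were adjusted for all tested genes (Benjamini-Hochberg) separately in the 5 contrasts. The 2 injury contrasts and the 2 genotype contrasts share groups, so their values stand side by side only. An exact permutation test of 3 against 3 libraries cannot go below 0.1 and was not used. The labels name no molecular identifiers, so counting intervals and the 3-count floor leave out amplification. No 2 libraries were identical. The fit was tested on simulated data.

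The members, gene lists and tests were chosen with earlier results of these data known. Genes named are the members, the ligand, partner, paralog and pan-leukocyte lists, up to 4 genes with the smallest p of each other list, and the 3 nearest profiles per member (names of the Gm or Rik kind were skipped). One gene of the partner list is not reported here and is left out of its counts and medians. The defining neutrophil markers were a fixed list. Spi1 and the uncalled genes of the wider neutrophil list were named after their values were seen. Entrez identifiers of 17436 genes matched the RefSeq table, and promoter bases inside annotated gene spans or exons were not printed. Alternatives were RLE factors, no filter, unrounded counts, DESeq2 1.42.0, only the groups compared, the replicate number as a block and leaving out each library.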

Additional observations from a re-analysis of the deposited data

How the results depend on the processing

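The calls of Clec4d, Trem1 and Csf3r after MI in both genotypes held under every alternative run, and no member was called between genotypes or in the interaction under any of them. Fitting only the groups compared gave 1771 genes lower after MI in Cre-positive hearts against 2665, and 1 lower between genotypes after MI and 0 after sham. DESeq2 called 86 genes higher and 81 lower between genotypes after MI, 11 and 26 after sham, and 20 and 13 in the interaction. No filter on low counts gave 2 higher in the interaction. The causes of these differences were not tested.

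Over fits that each leave out 1 library, members called lower numbered 0 to 1 in each injury comparison. All genes called numbered 0 to 1 higher and 0 to 2 lower between genotypes after MI, 0 to 2 and 3 to 8 after sham, and 0 to 1 higher in the interaction. Changes that were not called altered sign: Cxcr2 (-0.12 to 0.37) and Retnlg (-0.44 to 0.60) after MI in Cre-positive hearts, Cxcr2 between genotypes after MI (-0.38 to 0.11), Trem1 (-4.43 to 0.80) and G0s2 (-0.14 to 0.33) between genotypes after sham, and the interaction of Trem1 (-1.63 to 3.60).

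Replicate numbers are shared across groups, and most same-numbered libraries did not deviate together. Correlations of 18 such pairs ran from -0.15 to 0.29, 4 were over 0.1, and 5 of 12 libraries correlated best with their own number. The highest joined the MI libraries of the 2 genotypes, at 0.29 for replicate 1 and 0.25 for replicate 3, against -0.01 for replicate 2. Pairing MI replicate 1 of 1 genotype with replicate 3 of the other gave -0.31 and -0.24. With the replicate number as a block, 4043 genes were called higher and 3327 lower in Cre-negative hearts, 3520 and 2630 in Cre-positive hearts, 0 and 7 between genotypes after sham and 0 after MI, and no call of a member changed. The comparison of Clec4d, Trem1 and Retnlg after sham could not be fitted with only the groups compared, since they failed the filter there. TMM-scaled CPM was added as a scale after seeing the data. Depth limits Trem1, Clec4d and Retnlg, with 3 to 36 reads per sham group.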
